A study of Mus musculus with 16 samples.

Results

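The genes described here encode 9 proteins of the tricarboxylic acid cycle: Cs, Idh2, Idh3a, Idh3b, Ogdh, Sucla2, Suclg1, Fh1 and Mdh2. They were taken by symbol from the table of non-normalized bead array intensities, which held 11 probes for these 9 genes among 25697 probes for 16593 gene symbols. Total RNA of gastrocnemius, a calf muscle made mostly of fast fibres, was hybridised to 16 Illumina arrays, 1 array per mouse. Each label carries its own animal number. The animals were B6C3F1/J mice in 4 groups: 3 heterozygous N17182Q transgenic mice (Tg/+) on 4b, 4 such mice on vehicle, 5 wild-type mice on 4b and 4 on vehicle. The N17182Q transgene encodes an N-terminal fragment of huntingtin with an expanded polyglutamine tract under a prion protein promoter, and is used as a model of Huntington's disease. Compound 4b is an inhibitor of histone deacetylases, the enzymes that remove acetyl groups from histones and other proteins. The sources used here give no dose, duration, age or sex. All 16 mice shared the strain, and the labels name no further allele or agent.

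The cycle runs in the mitochondrial matrix, where it oxidises the acetyl group of acetyl-CoA to carbon dioxide and passes the electrons, as NADH and reduced flavin, to the respiratory chain. Citrate synthase starts it, the isocitrate and oxoglutarate dehydrogenases release carbon dioxide, succinyl-CoA ligase forms a nucleotide triphosphate, and fumarase and malate dehydrogenase restore oxaloacetate. Skeletal muscle runs the cycle harder during contraction, oxidative fibres hold more of its enzymes than fast glycolytic ones, and citrate synthase activity is widely used as a measure of mitochondrial content.

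Levels are given as normalised log2 intensity, so that a difference of 1 is a doubling, and groups were compared with limma across 10295 rows, 1 row per gene or unnamed probe. A probe counted as detected on an array where its deposited detection p-value was under 0.05, and a difference was called where its Benjamini-Hochberg adjusted p was under 0.05. Of the 11 probes, 9 were detected on all 16 arrays. The Sucla2 probe ILMN_2596942 was detected on 3 arrays, the least the filter allowed, and the Suclg1 probe ILMN_2683681 on 0, so 10 probes and all 9 genes entered the fits. Levels of different probes are not compared, because probes differ in brightness.

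Between 42.7% and 50.3% of all probes were detected per array, and arrays correlated with each other at 0.901 to 0.985 over the rows tested. The muscle label was borne out by the 8 fibre markers, whose mean level lay between 14.68 and 15.09 on every array. Markers of other cells varied between animals: the mean of 5 adipocyte markers ran between 6.0 and 10.11, and that of 6 B and T cell markers between 4.81 and 9.35. Eif2s3y, a gene of the Y chromosome, was at 9.48 or above on 8 arrays and at 4.82 or below on the other 8, and the high arrays were 1 of 3 transgenic 4b, 3 of 4 transgenic vehicle, 2 of 5 wild-type 4b and 2 of 4 wild-type vehicle arrays. In bulk muscle, fewer cells of a type and less RNA per cell cannot be told apart.

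Promoter windows of RefSeq (build GRCm38.p6), each from 250 bases before a transcript start to 50 bases after it, were matched by symbol for 8 of the 9 genes, with 6 windows for Ogdh and 1 for each of the others. Idh3a was not matched. The windows printed here belong to Idh2, the member that was higher in transgenic muscle, Idh3b, the member that varied most between arrays, and Ogdh. Capitals mark the letters of the motifs searched, on either strand, and the letters around them are in lower case.
Idh2, chr7:80115301-80115600, minus strand: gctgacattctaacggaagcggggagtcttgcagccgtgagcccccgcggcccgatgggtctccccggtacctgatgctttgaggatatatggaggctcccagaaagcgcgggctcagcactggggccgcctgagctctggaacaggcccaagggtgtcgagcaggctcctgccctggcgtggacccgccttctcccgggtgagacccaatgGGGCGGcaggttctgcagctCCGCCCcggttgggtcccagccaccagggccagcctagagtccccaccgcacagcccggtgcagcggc
Idh3b, chr2:130284402-130284701, minus strand: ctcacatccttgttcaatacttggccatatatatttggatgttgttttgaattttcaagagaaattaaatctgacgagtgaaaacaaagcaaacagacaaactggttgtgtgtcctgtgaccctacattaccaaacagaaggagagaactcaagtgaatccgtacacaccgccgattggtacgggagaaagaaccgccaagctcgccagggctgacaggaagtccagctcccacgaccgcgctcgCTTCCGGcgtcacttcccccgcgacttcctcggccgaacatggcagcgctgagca
Ogdh, window 5, chr11:6292308-6292607, plus strand: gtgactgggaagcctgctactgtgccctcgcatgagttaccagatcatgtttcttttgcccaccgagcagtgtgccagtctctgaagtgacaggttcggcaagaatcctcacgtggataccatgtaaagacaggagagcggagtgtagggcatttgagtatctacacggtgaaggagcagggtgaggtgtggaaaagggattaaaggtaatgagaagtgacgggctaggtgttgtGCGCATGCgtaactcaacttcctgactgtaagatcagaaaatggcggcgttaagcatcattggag
In the Idh2 window the capitals are 2 Sp1 sites (GGGCGG), 1 on each strand, at bases -38 to -33 and -18 to -13, counted from the start of transcription as base 0. In the Idh3b window they are an ETS core (CCGGAAG) on the reverse strand, at bases -5 to 1, which is the kind of element that the Gabpa product binds. In window 5 of Ogdh they are the NRF1 core (GCGCATGC) at bases -15 to -8, and window 6 overlaps it and holds the same match. Windows 1 to 4 of Ogdh, not printed here, hold other motifs searched and no NRF1 core. A gene with 6 windows has more chances to hold a motif than a gene with 1.

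Of 27025 genes with promoter windows of this length, 38.2% held the Sp1 site in at least 1 window, 9.93% the ETS core, 3.05% the NRF1 core and 2.03% the CREB site (TGACGTCA). Of the 8 members with a window, 6 held an Sp1 site, namely Cs, Idh2, Ogdh, Sucla2, Fh1 and Mdh2. The CREB site was found in 2 members, Ogdh and Mdh2, and the ETS and NRF1 cores in 1 member each, as printed above. The site of estrogen-related receptors (TCAAGGTCA), factors known to drive genes of mitochondrial proteins, was found in 0 of the 8 and in 0.466% of all genes. The Suclg1 window held none of these letters. No match overlapped another of the 5 motifs, and a match of letters shows no binding.

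**Figure D1:**
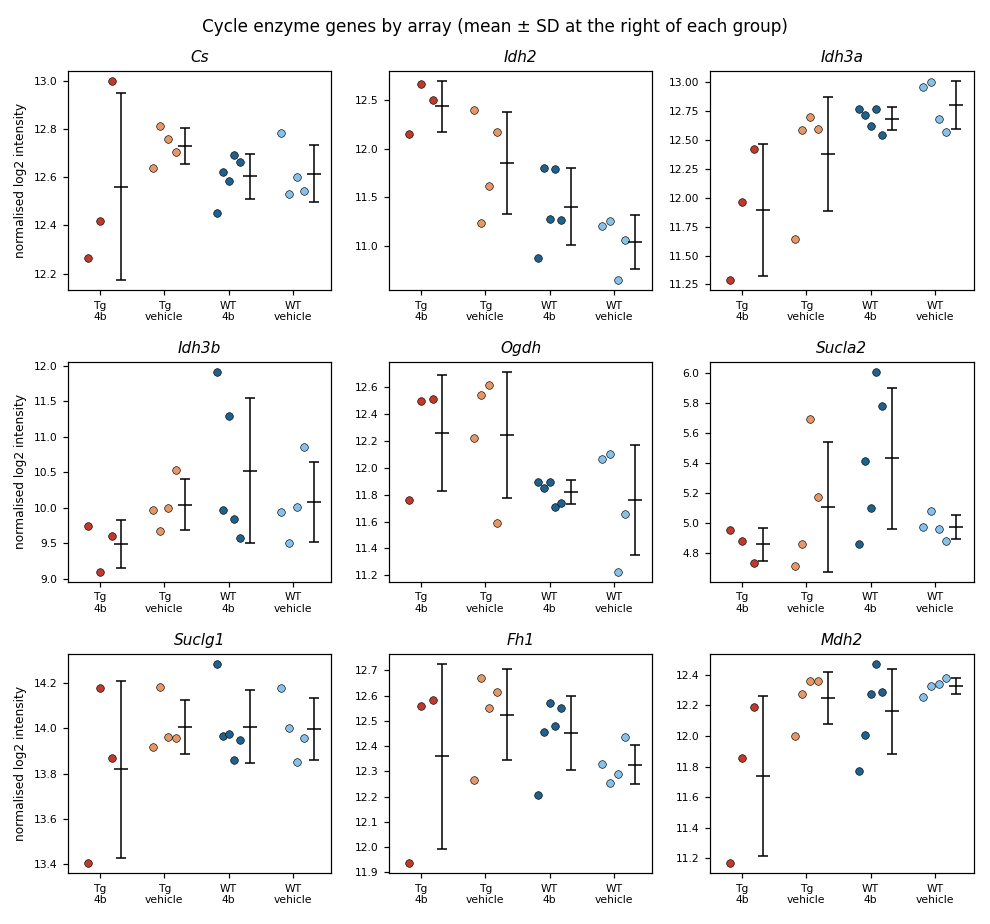
Normalised log2 intensity (vertical axes, each with its own scale) of the 9 cycle genes on each of the 16 arrays, with the group mean and SD as a bar to the right of the points. Idh2 lies between 12.15 and 12.66 on the transgenic 4b arrays, above all 5 wild-type 4b arrays, Idh3a lies below them, and transgenic 4b replicate 1 is the lowest array for Cs, Idh3a, Suclg1, Fh1 and Mdh2.

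The genotype comparison asked how the cycle genes of transgenic muscle differ from those of wild-type muscle under each treatment. With 4b, Idh2 was higher and Idh3a lower in transgenic muscle, and the other 7 members did not pass the test. These 2 of 9 members, 1 in each direction, stand beside 2911 of 10295 rows called in that comparison, or 28.3% of rows, with 15.5% higher and 12.8% lower. With vehicle, 0 of 9 members were called by limma, beside 5.3% of rows, and 1 member, Idh2, had an unadjusted p under 0.05, beside 21.3% of rows. The median difference of the members was 0.11 with vehicle and -0.19 with 4b, against 0.01 and -0.00 over all rows. Both member counts are close to or below the background of their comparison.

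Citrate synthase, the product of Cs, joins acetyl-CoA to oxaloacetate and so opens the cycle. Its probe read 12.26, 12.42 and 13.00 on the transgenic 4b arrays and 12.64, 12.81, 12.76 and 12.71 on the transgenic vehicle arrays. The wild-type arrays read 12.45, 12.62, 12.59, 12.69 and 12.67 with 4b and 12.79, 12.53, 12.60 and 12.55 with vehicle. The 3 transgenic 4b arrays held both the lowest and the highest value of all 16, and every pair of groups overlapped. The transgenic minus wild-type difference was 0.11 ± 0.15 with vehicle (SE, 95% interval -0.20 to 0.43, adjusted p = 0.715) and -0.04 ± 0.15 with 4b (SE, 95% interval -0.36 to 0.28, adjusted p = 0.871). Cs had the smallest spread of the 9 members, with an SD of 0.17 over the 16 arrays, and only 4.50% of the rows tested varied less.

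Idh2 encodes the mitochondrial isocitrate dehydrogenase that reduces NADP, and its NADPH feeds the glutathione and thioredoxin systems of the matrix. The transgenic 4b arrays read 12.15, 12.66 and 12.50, against 10.87, 11.80, 11.27, 11.79 and 11.27 on the wild-type 4b arrays. All 3 transgenic values lay above all 5 wild-type values. Transgenic muscle was 2.05-fold higher with 4b (log2 difference 1.03 ± 0.27, SE, 95% interval 1.37-fold to 3.05-fold, limma adjusted p = 0.0113). Groups that do not overlap were found for 31.1% of rows in this comparison and for 2 of the 9 members, Idh2 and Idh3a.

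With vehicle, the Idh2 levels were 12.40, 11.24, 11.61 and 12.17 on the transgenic arrays and 11.20, 11.26, 10.65 and 11.06 on the wild-type arrays. Transgenic replicate 2 lay below wild-type replicate 2, so the groups overlapped by that animal. The difference was 0.81 ± 0.26 (SE, 1.75-fold, 95% interval 1.19-fold to 2.58-fold), with an adjusted p of 0.0851 by limma, which did not pass. Without transgenic vehicle replicate 2, the animal behind the overlap, it was 1.02 with an adjusted p of 0.0348. Adjusting for each array's share of detected probes gave 0.99 with an adjusted p of 0.0286. By contrast, 0 of 9 members were called with the authors' log2 values, no background correction, an offset of 50, median scaling or array weights. The adipocyte, B and T cell and Eif2s3y measures as covariates also gave 0. So did leaving out transgenic vehicle replicate 1 or wild-type vehicle replicate 1 or 2.

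Averaged over both treatments, Idh2 was 1.90-fold higher in transgenic muscle (log2 difference 0.92 ± 0.19, SE, n = 7 transgenic and 9 wild-type arrays, limma adjusted p = 0.00197). In this averaged comparison 2 of 9 members were called, again Idh2 and Idh3a, beside 33.2% of rows. It reuses the arrays of the 2 genotype comparisons and adds no animals to them. Leaving out transgenic 4b replicate 2 moved the 4b difference of Idh2 to 0.92 with an adjusted p of 0.0616, which ended the call. Without transgenic 4b replicate 1 or 3 the difference was 1.178 or 1.003, with adjusted p-values of 0.0229 and 0.0295.

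Idh3a encodes the catalytic subunit of the NAD-linked isocitrate dehydrogenase, a regulated step that delivers NADH to the respiratory chain. It read 11.29, 11.96 and 12.42 on the transgenic 4b arrays, against 12.77, 12.72, 12.62, 12.76 and 12.54 on the wild-type 4b arrays. All 3 transgenic values lay below all 5 wild-type values, and the transgenic values spread more widely, with an SD of 0.57, against 0.10 in wild type. Transgenic muscle held 0.579 times the wild-type level with 4b (log2 difference -0.79 ± 0.25, SE, 95% interval 0.399 to 0.840 times, limma adjusted p = 0.0301).

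Transgenic vehicle arrays had Idh3a levels of 11.65, 12.59, 12.70 and 12.59, against 12.95, 13.00, 12.68 and 12.56 on wild-type vehicle arrays. Replicate 1 was the low transgenic animal, and the other 3 lay within the range of the wild-type arrays. The difference of -0.42 ± 0.24 did not pass (SE, 95% interval -0.94 to 0.10, adjusted p = 0.350). Averaged over treatments, Idh3a fell by 0.60 on the log2 scale in transgenic muscle (SE 0.18, 0.658 times the wild-type level, limma adjusted p = 0.0158).

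The Idh3a call with 4b depended on which animals were kept. Without transgenic 4b replicate 1, the lowest array, the difference was -0.49 with an adjusted p of 0.195, and without transgenic 4b replicate 2 it was -0.82 with an adjusted p of 0.0759. Leaving out wild-type 4b replicate 1, 2 or 4 kept the difference at -0.77, -0.78 and -0.77 but gave adjusted p-values of 0.0511, 0.0514 and 0.0524. Without transgenic 4b replicate 1 the averaged difference was -0.45 with an adjusted p of 0.0536. Scaling arrays by their medians in place of quantile normalization gave -0.52 with 4b and an adjusted p of 0.118, while the median of all rows moved to 0.11.

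**Figure D2:**
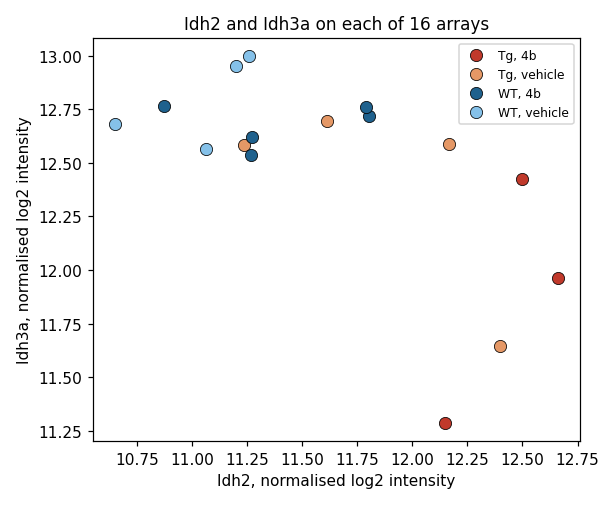
Level of Idh3a (vertical axis, normalised log2 intensity) against that of Idh2 (horizontal axis, normalised log2 intensity), 1 point per array, coloured by group. The 3 transgenic 4b arrays and transgenic vehicle replicate 1 lie at the lower right, with Idh2 at 12.15 or above and Idh3a at 12.42 or below, and all 9 wild-type arrays lie at 12.54 or above in Idh3a.

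Over the 16 arrays the 2 isocitrate dehydrogenase genes ran in opposite directions, with a Pearson correlation of -0.63 and a Spearman correlation of -0.56. Taken as deviations from the group means the Pearson correlation was -0.11, so the opposite course lay mostly between groups. The plot of Idh3a against Idh2 shows transgenic vehicle replicate 1 among the transgenic 4b arrays and the other 3 transgenic vehicle arrays above them in Idh3a. These points share their arrays, the normalization and the genotype difference already given, and the correlation is a description.

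Other measures differed between the same animals. The mean level of the 8 muscle fibre markers was 14.79 to 14.88 on transgenic 4b arrays and 14.94 to 15.09 on wild-type 4b arrays. This mean correlated with Idh2 at -0.78 and with Idh3a at 0.78 over the 16 arrays. It was lower on every transgenic array than on every wild-type array, so these correlations include the genotype difference. None was computed within groups. The separation was narrow, with 14.933 on transgenic vehicle replicate 3 against 14.935 on wild-type 4b replicate 2. The 8 markers include the fast myosin Myh4, the 1 gene of this list called lower with 4b, and the mean without Myh4 was not computed. The summed intensity of those 8 markers was 239809 to 269884 on transgenic 4b arrays and 258131 to 293431 on wild-type 4b arrays. The mean level of 5 fibroblast markers was 8.11 to 8.47 on transgenic 4b arrays and 10.45 to 12.03 on wild-type 4b arrays, with summed intensities of 17736 to 20825 and 21793 to 35264. Among these 5, Col3a1 was detected on no transgenic 4b array and Col1a1 only on replicate 2. Lum read 6.69 to 8.70 on transgenic and 10.77 to 11.92 on wild-type 4b arrays. Dcn and Pdgfra differed less, at 13.85 to 13.99 and 9.65 to 9.98 on transgenic and 14.18 to 14.51 and 10.04 to 10.75 on wild-type 4b arrays. The 5 adipocyte markers tested of 7 averaged 6.0 to 8.16 on transgenic 4b arrays and 6.82 to 9.90 on wild-type 4b arrays, with sums of 1102 to 5904 and 1626 to 14363, and Fabp4 was detected on no array. The fibroblast ranges did not overlap between these groups in mean level or in sum, the muscle ranges overlapped in sum but not in mean level, and the adipocyte ranges overlapped in both. The part of the muscle and fibroblast measures in the Idh2 and Idh3a differences was not tested.

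Both calls were lost in fits without the arrays rich in markers of other cells, which also hold fewer animals. Why they were lost was not tested. The count of all rows called is given here only for the second of the 2 settings. Without the 3 arrays whose adipocyte mean was over 9, all of them wild type, the differences with 4b were 0.81 for Idh2 and -0.78 for Idh3a, with adjusted p-values of 0.0683 and 0.0851. Without the 6 arrays whose B and T cell mean was over 6, which leaves 1 transgenic 4b array assumed to vary like the other groups, they were 0.88 and -0.25, with adjusted p-values of 0.365 and 0.782. That setting left 4 called rows in the whole table, against 2911 with all arrays. With the Y-linked Eif2s3y, the adipocyte mean or the B and T cell mean as a covariate in place of leaving out arrays, both genes kept their call and direction.

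Idh3b encodes the beta subunit of the NAD-linked isocitrate dehydrogenase, which supports the catalytic alpha subunit. It was the most variable member, running over 2.81 log2 units with an SD of 0.72, and 87.8% of rows tested varied less. Its levels were 9.75, 9.10 and 9.60 on transgenic 4b arrays and 11.91, 9.97, 11.30, 9.85 and 9.57 on wild-type 4b arrays. The vehicle arrays read 9.97, 9.67, 10.0002 and 10.53 in transgenic mice and 9.94, 9.51, 10.01 and 10.86 in wild-type mice. Wild-type 4b replicates 1 and 3 and wild-type vehicle replicate 4 stood above all other arrays, and the groups overlapped in every comparison.

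The 3 wild-type arrays with the highest Idh3b levels were also the 3 with the highest adipocyte marker means, at 9.90, 9.10 and 10.11, whereas the other 13 arrays reached at most 8.16. The Pearson correlation of Idh3b with that mean was 0.83 over 16 arrays and 0.42 over the 13 arrays without those 3. The genotype difference with 4b was -1.04 ± 0.46 (SE, 95% interval -2.02 to -0.05, adjusted p = 0.107) and did not pass. Without the 3 arrays it was -0.31 with an adjusted p of 0.383. With vehicle the difference was -0.04 ± 0.45 (SE, adjusted p = 0.975).

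The genes whose levels followed Idh3b most closely over the 16 arrays were Slc25a1, the mitochondrial citrate carrier, at a correlation of 0.96, Thrsp, which responds to thyroid hormone in lipogenic tissue, at 0.96, and Tenm4, Aldh1a7 and Cd1d1 at 0.95, 0.93 and 0.93. Slc25a1 itself read 11.89 and 11.15 on wild-type 4b replicates 1 and 3 and 9.63 on wild-type vehicle replicate 4, the same 3 arrays. Over the other 13 arrays Idh3b and Slc25a1 correlated at 0.76. The nearest followers of Idh3a were a different set, Oxct1, Calm3, Pkm, Tuba4a and Atp1b2, at 0.95 to 0.96, and Idh3a and Idh3b correlated with each other at 0.25.

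**Figure D3:**
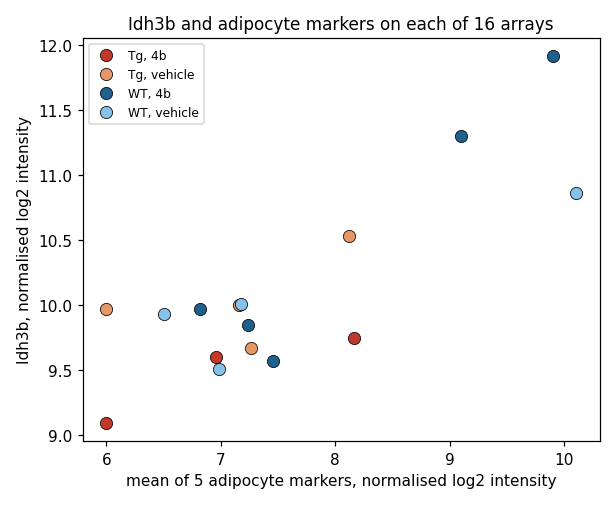
Level of Idh3b (vertical axis, normalised log2 intensity) against the mean of 5 adipocyte markers (horizontal axis, normalised log2 intensity), 1 point per array, coloured by group. The 3 arrays with Idh3b at 10.86 or above are wild-type arrays with a marker mean of 9.10 or more, and the other 13 arrays lie at 8.16 or below on the horizontal axis.

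Ogdh encodes the first component of the oxoglutarate dehydrogenase complex, which turns 2-oxoglutarate into succinyl-CoA. Transgenic 4b arrays read 11.76, 12.50 and 12.51, against 11.89, 11.85, 11.90, 11.70 and 11.74 on wild-type 4b arrays. With vehicle the levels were 12.22, 12.54, 12.62 and 11.59 in transgenic mice and 12.06, 12.10, 11.23 and 11.66 in wild-type mice. Under each treatment 1 transgenic array lay within the wild-type range, and the others lay above all wild-type arrays. The difference was 0.44 ± 0.25 with 4b (SE, adjusted p = 0.213) and 0.48 ± 0.24 with vehicle (SE, adjusted p = 0.280). Averaged over treatments it was 0.46 ± 0.18 (SE, 95% interval 0.08 to 0.83, adjusted p = 0.0573), just short of the threshold.

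Succinyl-CoA ligase pairs the alpha subunit Suclg1 with a beta subunit, Sucla2 in the ADP-forming enzyme, which prevails in muscle, or Suclg2 in the GDP-forming one. The Suclg1 probe ILMN_3002872 read 13.41, 14.18 and 13.87 on transgenic 4b arrays and 14.29, 13.97, 13.97, 13.86 and 13.95 on wild-type 4b arrays. The vehicle arrays read 13.92, 14.18, 13.96 and 13.96 in transgenic mice and 14.18, 14.00, 13.85 and 13.96 in wild-type mice. All groups overlapped, and the difference was -0.19 ± 0.16 with 4b (SE, adjusted p = 0.421) and 0.01 ± 0.16 with vehicle (SE, adjusted p = 0.984). The second detected probe, ILMN_1216493, gave -0.26 ± 0.16 with 4b (SE, adjusted p = 0.229 over 13706 probes, of which 27.4% were called) and 0.04 ± 0.15 with vehicle, so both probes ran the same way.

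The Sucla2 probe was not well above background in most animals, with intensities of 115 to 162 and detection on 1 transgenic vehicle array and 2 wild-type 4b arrays. Its levels were 4.95, 4.88 and 4.74 on transgenic 4b arrays and 4.86, 5.41, 5.10, 6.01 and 5.78 on wild-type 4b arrays. With vehicle they were 4.71, 4.86, 5.69 and 5.17 in transgenic mice and 4.97, 5.08, 4.96 and 4.88 in wild-type mice. Wild-type 4b replicates 4 and 5 and transgenic vehicle replicate 3 were the detected arrays. No fold is given, because a group with no detected array entered every 2-group comparison of Sucla2 and the resulting bounds were all under 1-fold. The averaged comparison pools these same groups, and no bound was computed for it. The difference with 4b had an adjusted p of 0.0976.

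Fh1 encodes fumarase, which hydrates fumarate to malate. Its levels were 11.94, 12.56 and 12.58 on transgenic 4b arrays and 12.20, 12.46, 12.57, 12.48 and 12.55 on wild-type 4b arrays. Transgenic vehicle arrays read 12.26, 12.67, 12.55 and 12.61, against 12.33, 12.25, 12.29 and 12.44 on wild-type vehicle arrays. Transgenic 4b replicate 1 stood below all other arrays and the remaining values shared a range. The genotype difference was -0.09 ± 0.16 with 4b (SE, adjusted p = 0.712) and 0.20 ± 0.15 with vehicle (SE, adjusted p = 0.510).

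Mdh2 encodes the mitochondrial malate dehydrogenase, which returns malate to oxaloacetate and also serves the malate-aspartate shuttle. Its levels were 11.17, 11.86 and 12.19 on transgenic 4b arrays and 12.00, 12.27, 12.36 and 12.36 on transgenic vehicle arrays. The wild-type arrays read 11.77, 12.00, 12.27, 12.47 and 12.29 with 4b and 12.25, 12.32, 12.34 and 12.38 with vehicle. The transgenic 4b arrays lay at the low end, 2 of them below every transgenic vehicle array. The genotype difference with 4b was -0.42 ± 0.21 (SE, 95% interval -0.86 to 0.02, adjusted p = 0.138), and without transgenic 4b replicate 1 it was -0.14 with an adjusted p of 0.657. With vehicle it was -0.08 ± 0.20 (SE, adjusted p = 0.871).

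**Figure D4:**
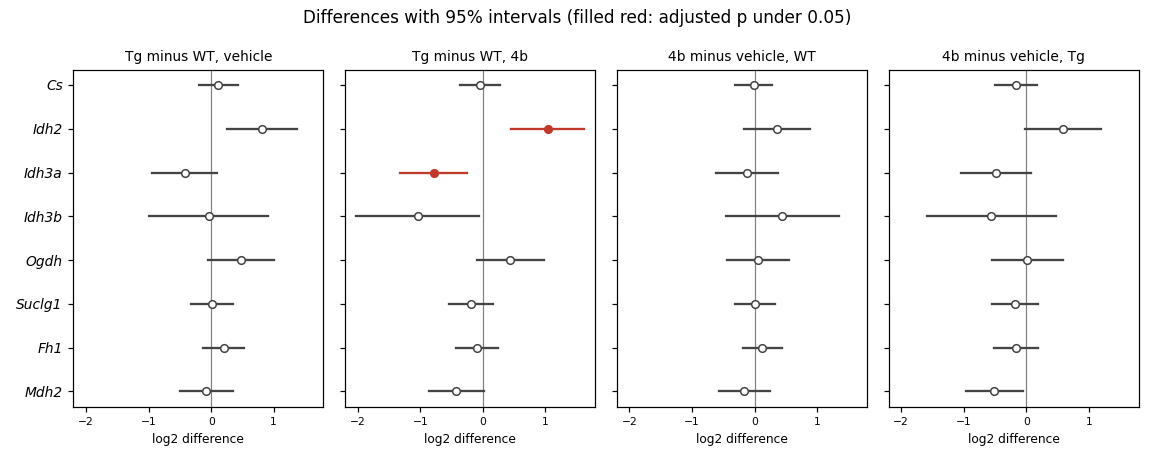
Log2 differences (horizontal axes) of 8 cycle genes in 4 comparisons, without Sucla2, which was near background, drawn as points with 95% intervals, filled red where the limma adjusted p was under 0.05. Only Idh2 (1.03) and Idh3a (-0.79) in the transgenic minus wild-type comparison with 4b are filled, and the comparisons share arrays in pairs.

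The treatment comparison asked what 4b did in each genotype. In transgenic muscle 0 of 9 members were called by limma, beside 1 of 10295 rows, or 0.00971%, and 1 member had an unadjusted p under 0.05, beside 14.7% of rows. In wild-type muscle 0 of 9 members were called, beside 0% of rows, and 0 members had an unadjusted p under 0.05, beside 2.67% of rows. The member with an unadjusted p under 0.05 was Mdh2, whose 4b minus vehicle difference in transgenic muscle was -0.51 ± 0.21 (SE, 95% interval -0.97 to -0.05, adjusted p = 0.284). Without transgenic 4b replicate 1 that difference was -0.22 with an adjusted p of 0.808.

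Idh2 and Idh3a, the members called between genotypes, differed between 4b and vehicle in transgenic muscle by 0.58 ± 0.28 and -0.49 ± 0.26 (SE, adjusted p = 0.357 and 0.410). In wild-type muscle the same differences were 0.36 ± 0.25 and -0.12 ± 0.23 (SE, adjusted p = 0.9999 for both). Neither passed in either genotype. The test of whether 4b acted differently in the 2 genotypes called 0 of 9 members and 0% of rows, with 0 members and 10.1% of rows at an unadjusted p under 0.05. In it Idh2 had a difference of differences of 0.22 ± 0.38 (SE, 95% interval -0.58 to 1.03) and Idh3a one of -0.37 ± 0.35 (SE, 95% interval -1.12 to 0.38). The Idh2 and Idh3a genotype differences with 4b and with vehicle were therefore not shown to differ from each other.

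Among the members, 7 of 9, Sucla2 included, had a negative 4b minus vehicle difference in transgenic muscle, with a median of -0.19, against a median of -0.02 over all rows. In wild-type muscle 3 of 9 were negative and the median was 0.05. Transgenic 4b replicate 1 was the lowest of the 16 arrays for 5 members, Cs, Idh3a, Suclg1, Fh1 and Mdh2, and its median deviation over the 9 genes was -0.36 from the array medians of the genes. On the other 15 arrays that deviation lay between -0.10 and 0.09. This array had a B and T cell marker mean of 7.26 and an adipocyte marker mean of 8.16, the highest of the transgenic 4b arrays in both, and 46.9% of its probes were detected. Its mean of 2 Schwann cell markers, 10.74, was the highest of the 16 arrays and its mean of 2 red blood cell markers, 8.88, the lowest. Of the Schwann cell markers, Mbp was at 11.01, its highest level, and Pmp22 at 10.47, which other arrays exceeded. The level of Cs correlated with that of the haemoglobin gene Hba-a1 at 0.83 over the 16 arrays. Hba-a1 came from a search of 9385 genes, in which Spg7, Atp5a1, Qdpr and Slc25a12 ranked higher, at 0.84 to 0.85. Both Cs and Hba-a1 were lowest on transgenic 4b replicate 1 and highest on transgenic 4b replicate 3. The part of these measures in the low values of transgenic 4b replicate 1 was not tested.

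The highest pairwise correlation among members over the 16 arrays was that of Idh3a with Mdh2 at 0.74, and it was 0.45 without transgenic 4b replicate 1. Fh1 with Mdh2, Cs with Mdh2 and Cs with Fh1 followed at 0.67, 0.66 and 0.65, and were 0.30, 0.42 and 0.45 without that array. The mean profile of the 9 genes, each scaled to mean 0 and SD 1, was at -1.52 on that array and between -0.50 and 0.60 on the others. Of 9385 other genes, the 8 with the highest correlation to this profile were Trmt2b (0.88), Uqcrc1 (0.88), Sdhc (0.87), Cox7a1 (0.87), Cyc1 (0.87), Perm1 (0.87), Kbtbd7 (0.85) and Slc25a12 (0.85). Uqcrc1 and Cyc1 encode parts of respiratory complex III, Sdhc a membrane anchor of succinate dehydrogenase, Cox7a1 a muscle form of a complex IV subunit and Slc25a12 an aspartate-glutamate carrier. The 4 lowest were Ms4a8a (-0.88), Rps6 (-0.84), Hilpda (-0.82) and Rnf114 (-0.79). All of these correlations with the profile include transgenic 4b replicate 1, and values without it were not computed.

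None of the measured remaining subunits of the cycle was called between genotypes within a treatment. Of 9 genes listed, 7 were measured (Idh3g, Dlst, Dld, Suclg2, Sdhb, Sdhc and Sdhd), and 0 were called in either genotype comparison, beside 5.3% of rows with vehicle and 28.3% with 4b. Sdhd, a membrane anchor of succinate dehydrogenase, had the largest fitted difference of the 7 with 4b, with means of 8.34 on transgenic and 8.92 on wild-type arrays (log2 difference -0.58 ± 0.29, SE, limma adjusted p = 0.148). Suclg2, the GDP-forming partner of Suclg1, had the lowest adjusted p with 4b, with differences of 0.32 ± 0.13 with 4b (SE, adjusted p = 0.0765) and 0.29 ± 0.13 with vehicle (SE, adjusted p = 0.201). Averaged over treatments it was 1.24-fold higher in transgenic muscle (limma adjusted p = 0.0177). Of the 3 cytosolic counterparts, Aco1, Idh1 and Mdh1, 0 were called in either genotype comparison.

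Pyruvate enters the cycle through the pyruvate dehydrogenase complex, which makes acetyl-CoA and is switched off by kinases and on by phosphatases. With 4b, 5 of 10 measured genes of this list were called, beside 28.3% of all rows. Of these, 2 were higher and 3 lower, beside 15.5% and 12.8% of all rows. With vehicle 1 of 10 was called, beside 5.3% of all rows. Dlat, the acetyltransferase core of the complex, read 7.32, 8.42 and 9.51 on transgenic 4b arrays, against 10.02, 10.31, 10.53, 10.53 and 10.46 on wild-type 4b arrays. The transgenic values spread over more than 2 log2 units and all lay below wild type, and Dlat stood at 0.258 times the wild-type level (log2 difference -1.95 ± 0.35, SE, limma adjusted p = 0.00144). Pdp1, a phosphatase of the complex, read 7.76, 8.16 and 9.44 on transgenic 4b arrays, against 9.70, 10.66, 9.68, 10.39 and 10.78 on wild-type 4b arrays. It too lay lower in every transgenic animal, at 0.290 times the wild-type level (limma adjusted p = 0.00406).

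The kinase Pdk4 read 14.57, 14.03 and 13.90 on transgenic 4b arrays, against 10.60, 10.96, 12.56, 13.89 and 12.09 on wild-type 4b arrays. Wild-type replicate 4 reached almost to the transgenic values and the others lay well below, and transgenic muscle was 4.42-fold higher (log2 difference 2.14 ± 0.64, SE, limma adjusted p = 0.0221). Pdk4 was no longer called without transgenic 4b replicate 1 or 2, without the 2 animals whose number has 3 digits, or without the 6 arrays of high B and T cell markers. The second phosphatase, Pdp2, was 2.40-fold higher with 4b (limma adjusted p = 0.0123). Pdhb, a subunit of the first component, was 0.610 times the wild-type level (limma adjusted p = 0.0315), and it was named after its values were seen. With vehicle the called gene was the kinase Pdk1, 1.51-fold higher in transgenic muscle (limma adjusted p = 0.0247). With 4b Pdk1 was not called, at 8.57 to 8.68 on transgenic and 8.36 to 8.74 on wild-type arrays.

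Of 18 listed enzymes that fill or draw on the cycle, 14 were measured. With 4b, 3 were higher and 2 lower, a share near the 28.3% of all rows called. With vehicle, 2 were higher and 1 lower, beside 5.3% of all rows. Acat1, which splits or forms acetoacetyl-CoA in ketone and isoleucine breakdown, read 9.61, 9.77 and 8.86 on transgenic 4b arrays, against 6.95, 7.72, 7.39, 8.03 and 8.04 on wild-type 4b arrays. The groups did not overlap and transgenic muscle was 3.45-fold higher (log2 difference 1.79 ± 0.34, SE, limma adjusted p = 0.00181). With vehicle it was 2.25-fold higher (limma adjusted p = 0.0488), a call lost under 18 of 32 other settings.

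The malic enzyme Me1, which turns malate into pyruvate in the cytosol, read 9.93, 9.85 and 10.27 on transgenic 4b arrays and 11.34, 10.69, 11.46, 10.81 and 11.21 on wild-type 4b arrays. Every transgenic array was lower, also with vehicle, for which the share of all rows without overlap is not given here (31.1% with 4b). The level of Me1 was 0.472 times wild type with 4b and 0.553 times with vehicle (limma adjusted p = 0.00259 and 0.0284). Got2, the mitochondrial aspartate aminotransferase of the malate-aspartate shuttle, was 1.53-fold higher with vehicle (limma adjusted p = 0.0208). With 4b Got2 was not called and the groups overlapped, at 14.24 to 14.73 on transgenic and 13.98 to 14.40 on wild-type arrays. Bckdha, of branched-chain amino acid breakdown, was 1.71-fold higher and Oxct1, the ketone body transferase, was 0.424 times wild type with 4b (limma adjusted p = 0.00349 and 0.0162). Got1, the cytosolic aminotransferase, was 1.53-fold higher with 4b (limma adjusted p = 0.0434) and was named after its values were seen.

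**Figure D5:**
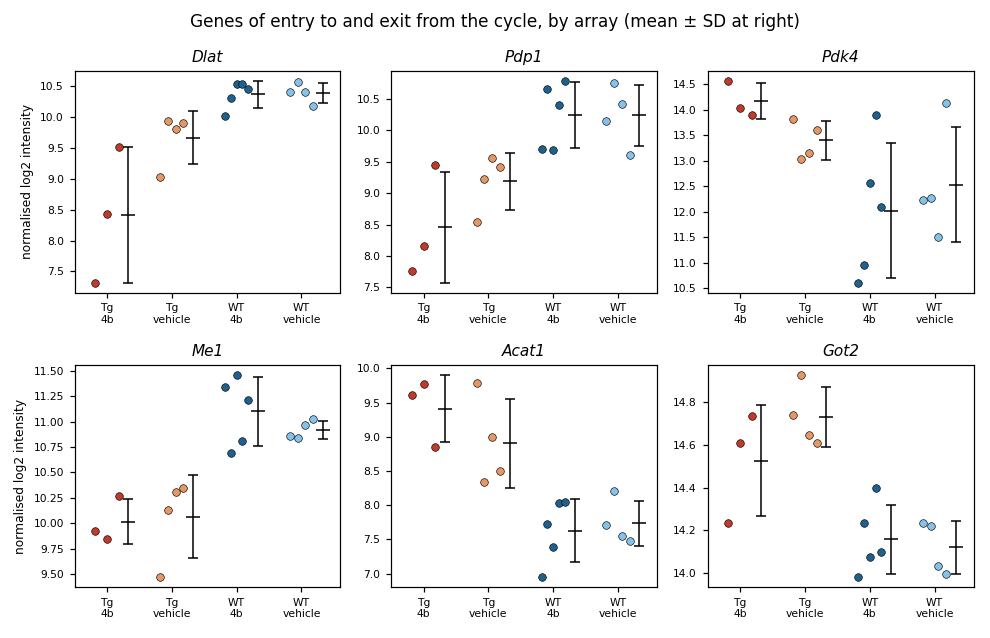
Normalised log2 intensity (vertical axes, each with its own scale) of 6 genes of entry to and exit from the cycle on each of the 16 arrays, with the group mean and SD as a bar to the right. On the transgenic 4b arrays Dlat, Pdp1 and Me1 lie below, and Pdk4 and Acat1 above, all wild-type 4b arrays, and Got2 is higher on all 4 transgenic vehicle arrays (14.61 to 14.93) than on the wild-type vehicle arrays (13.99 to 14.24). Of all rows, 31.1% had no overlap with 4b, and that share is not given here for vehicle.

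Of 4 measured carriers of cycle intermediates, 1 was called with 4b, near the 28.3% of all rows, and 0 with vehicle, beside 5.3%. The called carrier was Slc25a10, the dicarboxylate carrier, which was detected on 0 of 3 transgenic 4b arrays and 5 of 5 wild-type 4b arrays (limma adjusted p = 0.0312). Its mean level was at least 3.93-fold lower in the transgenic group, a bound on the group means and not on each wild-type animal. That bound sets the mean of the wild-type arrays against the lowest signal of detected probes on each transgenic array, or the probe's own value where higher. The call was lost under 11 of 32 other settings. Slc25a10 read 9.85 and 8.26 on wild-type 4b replicates 1 and 3, the arrays of high adipocyte markers, and 6.08 to 6.65 on the other wild-type 4b arrays. The wild-type mean of 7.41 used for the bound lay above all of those other arrays.

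Genes tied to mitochondrial content gave 2 higher and 1 lower of 8 measured with 4b, near the 28.3% of all rows called. With vehicle 2 of the 8 were higher, beside 5.3% of all rows called. Nrf1, a transcription factor of respiratory genes, read 9.20, 9.08 and 8.61 on transgenic 4b arrays, against 7.89, 7.65, 7.43, 7.72 and 7.55 on wild-type 4b arrays. It was 2.50-fold higher with 4b and 1.97-fold higher with vehicle (limma adjusted p = 0.000356 and 0.00638), with no overlap in either. Of all rows, 31.1% had no overlap with 4b, and that share is not given here for vehicle. Gabpa, another such factor, was 1.85-fold and 1.62-fold higher (limma adjusted p = 0.00345 and 0.0367), and Cycs, which encodes cytochrome c, was 0.461 times wild type with 4b (limma adjusted p = 0.0117). The Gabpa call with vehicle was lost under 13 of 32 other settings.

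Of 7 measured fibre type genes, 2 were lower with 4b, near the 28.3% of all rows called. With vehicle 1 was higher and 2 lower, beside 5.3% of all rows called. Myh4, the myosin of the fastest fibres, was 0.578 times wild type with 4b and 0.481 times with vehicle (limma adjusted p = 0.0145 and 0.0128). Casq1, the calsequestrin of fast fibres, was 0.0647 and 0.215 times wild type (limma adjusted p = 0.000318 and 0.0184), and Casq2, that of slow and cardiac muscle, was 6.22-fold higher with vehicle (limma adjusted p = 0.00696). With 4b Casq2 was not called and the groups overlapped, at 7.50 to 8.79 on transgenic and 6.60 to 8.57 on wild-type arrays. None of the genes in these 7 lists was called between 4b and vehicle in either genotype. Myh4 also stands in the muscle fibre list. In the cell type lists with 4b, where 12.8% of all rows were lower and 15.5% higher, muscle fibre (1 of 8), fibroblast (3 of 5), macrophage (1 of 4) and tendon (1 of 3) genes were lower and endothelium (1 of 3) higher, whereas adipocyte (5 measured), B and T cell (6), smooth muscle (3), Schwann cell (2) and red blood cell (2) lists had 0 called.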

How the data were processed

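Per the file headers, the authors deposited 1 non-normalized intensity and 1 detection p-value per probe and array, with intensities of 81.2 to 44501 on a linear scale. A second table deposited by the authors holds log2 values, whose columns kept the probe order of their own array and shared a median of 7.11. The sources used here name no scanner software, probe alignment or genome build.

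The intensities were background corrected with the normexp model of limma 3.58.1 in R 4.3.3, from the detection p-values and with an offset of 16, then log2 transformed and quantile normalised. Quantile normalization hides a shift of most genes in 1 direction, and the offset compresses differences of dim probes. The platform annotation gave 1 gene symbol to 23978 of 25697 probes, several to 0 and none to 1719. The 13706 probes with a detection p under 0.05 on at least 3 arrays were kept, and the brightest stood for its gene, which left 10295 rows. A fit of 4 group means to all 16 arrays (12 residual degrees of freedom) gave moderated two-sided tests with Benjamini-Hochberg adjustment over all rows. The fit was tested on simulated data. The number of arrays limits the precision, with a median SE of 0.217 with vehicle and 0.224 with 4b for a genotype difference. Columns assigned to no sample numbered 0.

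The members and all gene lists were chosen with earlier results of these data known. All members and probes were named, and of each companion list the called genes of smallest p, at most 4, or otherwise at most 2, with exceptions stated. Alternatives covered the background, offset, scaling, filter, probe choice, array weights, covariates, the authors' log2 values and single arrays left out. Replicates are numbered in accession order, which pairs no animals. Protein sequences were not used here.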

Additional observations from a re-analysis of the deposited data

Results flagged for a closer look

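In 3 of 30 sets of arrays, each 1 member probe in 1 group of 4 or 5, a single array stood apart from the rest by Dixon's test at the 95% level, which chance does in about 1 in 20. Idh3a was at 11.65 on transgenic vehicle replicate 1, whereas the other 3 transgenic vehicle arrays lay between 12.59 and 12.70. The Suclg1 probe ILMN_3002872 was at 14.18 on transgenic vehicle replicate 2, above 13.92 to 13.96 on the other 3, and at 14.29 on wild-type 4b replicate 1, above 13.86 to 13.97 on the other 4.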

How the results depend on the processing

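No paired analysis was possible because replicates are numbered in accession order only and the animal numbers are unrelated between groups. Under 32 alternatives for each 2-group comparison and 31 for the averaged and interaction comparisons, which the setting with the arrays of 1 comparison alone cannot give, 54 member differences were tested. The 4 called ones (Idh2 and Idh3a, with 4b and averaged) changed sign under 0 alternatives. Of the 50 others, 25 changed sign under at least 1, and 9 were called under at least 1.

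With vehicle, the 0 members called became 1 (Idh2) after adjusting for each array's share of detected probes, and leaving out 1 array gave 0 to 1. With 4b, the 2 members called became 1 with median scaling, 6 with array weights (2 higher, 4 lower), 1 without the 3 arrays of high adipocyte markers and 0 without the 6 arrays of high B and T cell markers, and leaving out 1 array gave 0 to 3. The 1 member called with 4b without the 3 arrays of high adipocyte markers was neither Idh2 nor Idh3a, which both lost their call there. For 4b in transgenic muscle the 0 called became 2 with array weights. For the averaged genotype difference the 2 called became 4 after adjusting for that share or for the B and T cell markers and 0 without the 6 arrays, and leaving out 1 array gave 2 to 3. The 2 settings that leave out arrays by their markers were chosen after seeing the data. Fewer samples enter every setting that leaves out arrays, and the 6-array setting leaves 1 transgenic 4b array. The cause of the changed counts was not tested.

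Idh2 with 4b ranged from 0.81 to 1.28 and lost its call under 3 of 32 alternatives, and Idh3a ranged from -1.05 to -0.25 and lost its call under 9 of 32. Ogdh averaged over treatments was called under 11 of 31, with values of 0.37 to 0.70. Over all rows, calls with vehicle ran from 124 (arrays of that comparison alone) to 1049 (adjusted for the share detected), against 546, and with 4b from 4 (without the 6 arrays) to 4768 (array weights), against 2911. For 4b in transgenic muscle they ran from 0 to 1778 (array weights), against 1, for the interaction from 0 to 89, against 0, and for the averaged difference from 1127 to 4490, against 3420. Median scaling moved the median of all rows to 0.12 with vehicle and 0.11 with 4b. Sucla2 lies near background and was not tested under the stricter filter.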
